A study of Homo sapiens with 32 samples.

Results

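The HOX genes are 39 of the 18980 coding genes listed in each RNA-seq library, and were taken by their symbols, a cluster letter from A to D followed by a position number. The HOXA cluster holds 11 of them, HOXB 10, HOXC 9 and HOXD 9. They were followed in RH4, an established cell line from human alveolar rhabdomyosarcoma, a childhood soft tissue tumour of the skeletal muscle lineage. The series lists 32 samples, of which the 20 RNA-seq libraries were used here, while 11 samples of ChIP-seq and 1 of ChRO-seq (nascent RNA) were not used. The 16 treated libraries each had 1 of 4 compounds (JQAD, IHK-44, dCBP, A485), given at 100 nM or 1 uM and for 6 h or 2 h. The 4 controls were DMSO, the solvent, at 2 h and 6 h, and NT, a name left unexplained in the labels, at 2 h and 6 h. Every group is this 1 line, with no deletion or transgene named in the labels.

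HOX genes encode homeodomain transcription factors that give cells of the embryo their position along the body axis. They lie in clusters whose gene order follows the order in which they are used along the axis, with low position numbers anterior and high numbers posterior, and genes of the same number in different clusters are closely related copies. Trithorax proteins keep active HOX genes on and Polycomb proteins keep the others silent. CBP and p300 are acetyltransferases that acetylate histones at enhancers and promoters. A485 is known as an inhibitor of that activity. The series' design text describes the compounds together as inhibitors or degraders, and the kind of each is not given in the sources used here.

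Levels in the controls came first. A gene was called expressed when its CPM, its counts scaled to 1000000 over the coding genes, was at least 1 in all 4 controls. By this rule 18 of the 39 HOX genes (46.2%) were expressed, against 61.5% of all coding genes listed. HOXA held 7 of them (among them HOXA3, HOXA4, HOXA5, HOXA7, HOXA10 and HOXA13) and HOXB 5 (HOXB3, HOXB4, HOXB7, HOXB9 and HOXB13). HOXC held 3 (HOXC4, HOXC9 and HOXC10) and HOXD 3 (HOXD8, HOXD9 and HOXD13). HOXA2 and HOXC13 reached 1 CPM in some of the controls, and the other 19 genes in none.

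Expression did not follow a single stretch of the axis. No gene of positions 2, 6, 11 or 12 was expressed, both genes of position 7 were, and so were 3 of 4 genes at each of positions 4, 9 and 13. Neighbours within a cluster were far apart in level: HOXA7 had a mean of 18.2 TPM (scaled per gene length) ± 1.54 (SD, n = 4) in the controls, while HOXA6 beside it had 0.20 ± 0.15 and HOXA9 0.070 ± 0.066. HOXB13, a posterior gene best known from prostate, had 8.19 ± 0.47 TPM and HOXA10, known for its part in the uterus and limb, 7.59 ± 0.73. The ranges of these 2 genes overlapped (7.68 to 8.82 TPM and 6.89 to 8.62 TPM), and both stayed below the lowest HOXA7 value of 16.4 TPM. Next in order came HOXD8 at 6.38 ± 1.14, HOXB7 at 5.42 ± 0.82 and HOXD9 at 5.21 ± 0.98 TPM, whose ranges overlapped, and the HOXD8 range (5.48 to 7.98) also reached that of HOXB13. The other expressed genes lay between 0.72 TPM (HOXB9) and 5.00 TPM (HOXC4).

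**Figure D1:**
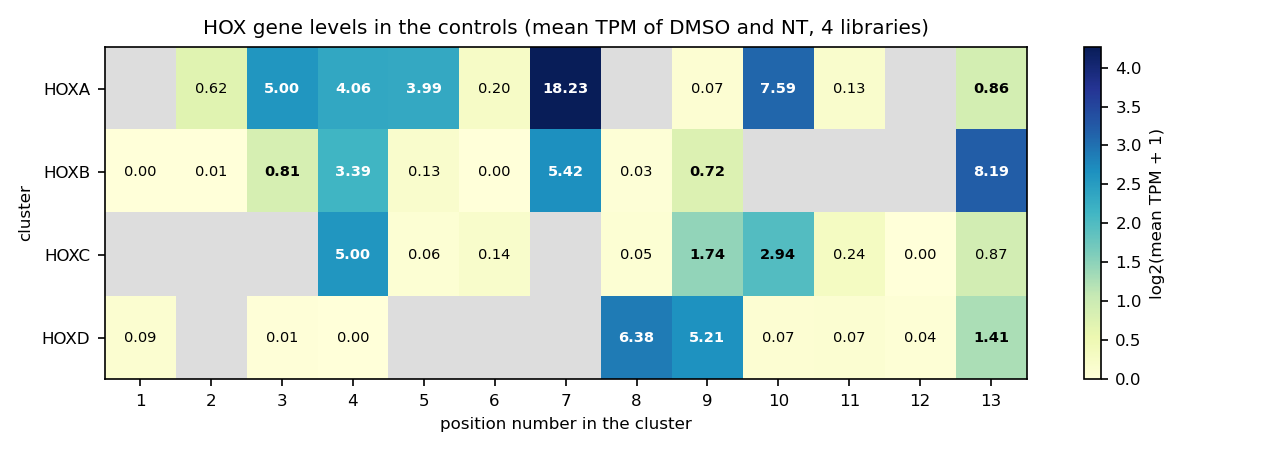
Mean TPM of 38 HOX genes over the 4 controls, by cluster (rows) and position number (columns), with colour on the log2(mean TPM + 1) scale, bold numbers for expressed genes and grey where no value is shown. HOXA7 stands highest at 18.2 TPM, and expressed and near-silent genes alternate along all 4 clusters.

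At the silent end, HOXB1, HOXB6 and HOXC12 had no count in any control, which allows a level of up to 0.199 CPM in the shallowest of them (3 counts, counting error only). In all 20 libraries together these genes had 1, 4 and 4 counts. HOXB2 and HOXD4 had 3 counts each over the 20 libraries. Some values are uncertain by annotation: the gene models of 11 HOX genes overlap another HOX gene, namely HOXA3 with HOXA4, HOXA5 and HOXA6, HOXB3 with HOXB4, HOXC4 with HOXC5 and HOXC6, and HOXD3 with HOXD4. Antisense genes also overlap several, such as HOXA-AS3 with HOXA7. Whether counting used strand is not given in the sources used here.

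Promoter sequence was looked at for 20 of the 39 genes, those listed in a RefSeq table (250 bases before to 50 after the annotated start, GRCh38.p14). The sequences below are shown because the results turn on these genes: HOXA7 and HOXA10 are among the 3 highest by CPM, HOXA13 rose with several compounds, HOXD11 is near-silent in the controls, and HOXD8 is the expressed gene that lay below the controls. Each is written 5′ to 3′ on the strand of its gene, with every CG in capitals. HOXA7 is at chr7:27156626-27156925, HOXA10 at chr7:27179812-27180111 and HOXA13 at chr7:27200042-27200341, all on the minus strand. HOXD11 is at chr2:176107030-176107329 and HOXD8 at chr2:176129455-176129754, both on the plus strand.
HOXA7: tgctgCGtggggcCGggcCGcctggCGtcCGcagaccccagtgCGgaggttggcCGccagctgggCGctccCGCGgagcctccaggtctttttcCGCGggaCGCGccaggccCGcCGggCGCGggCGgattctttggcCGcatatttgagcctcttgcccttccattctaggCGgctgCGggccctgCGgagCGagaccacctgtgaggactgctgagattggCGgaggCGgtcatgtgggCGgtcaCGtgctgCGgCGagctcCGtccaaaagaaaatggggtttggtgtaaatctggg
HOXA10: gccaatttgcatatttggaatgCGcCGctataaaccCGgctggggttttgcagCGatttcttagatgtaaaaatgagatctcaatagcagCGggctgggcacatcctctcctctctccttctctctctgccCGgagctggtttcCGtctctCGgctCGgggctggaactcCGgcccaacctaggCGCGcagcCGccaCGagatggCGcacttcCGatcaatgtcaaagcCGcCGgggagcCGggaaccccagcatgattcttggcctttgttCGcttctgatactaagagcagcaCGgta
HOXA13: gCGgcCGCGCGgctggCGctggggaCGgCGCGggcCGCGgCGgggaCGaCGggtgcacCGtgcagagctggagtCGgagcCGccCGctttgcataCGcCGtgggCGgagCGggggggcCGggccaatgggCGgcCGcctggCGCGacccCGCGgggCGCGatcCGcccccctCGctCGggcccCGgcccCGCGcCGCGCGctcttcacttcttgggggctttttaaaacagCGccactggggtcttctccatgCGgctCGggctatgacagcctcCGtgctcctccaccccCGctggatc
HOXD11: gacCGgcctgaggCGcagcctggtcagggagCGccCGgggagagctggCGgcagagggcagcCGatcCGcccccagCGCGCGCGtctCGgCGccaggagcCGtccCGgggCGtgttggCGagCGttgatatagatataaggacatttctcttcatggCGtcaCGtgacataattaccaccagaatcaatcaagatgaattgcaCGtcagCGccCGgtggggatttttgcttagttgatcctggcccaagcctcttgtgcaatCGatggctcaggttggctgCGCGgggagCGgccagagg
HOXD8: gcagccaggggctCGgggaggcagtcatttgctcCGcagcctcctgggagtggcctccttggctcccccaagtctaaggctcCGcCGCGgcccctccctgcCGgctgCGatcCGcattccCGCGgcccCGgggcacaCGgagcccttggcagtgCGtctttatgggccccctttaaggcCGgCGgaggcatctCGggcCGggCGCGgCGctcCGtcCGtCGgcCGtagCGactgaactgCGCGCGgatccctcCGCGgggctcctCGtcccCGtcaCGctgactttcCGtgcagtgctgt

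These 5 windows hold 31 (HOXA7), 21 (HOXA10), 44 (HOXA13), 27 (HOXD11) and 34 (HOXD8) CG. HOXA13 has the most of the 20 HOX promoters and HOXD4, near-silent here, the fewest with 4. The median of the 20 was 22.5 CG, next to 22 in the 15027 listed coding promoters. The 8 listed promoters of expressed HOX genes had a median of 25.5, next to 27 in 9624 expressed genes. Whether CG content goes with the change of a HOX gene was not tested.

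Searched on both strands, CCAAT was in 17 of 20 HOX promoters (85.0%, against 36.6% of all listed promoters), CACGTG in 8 (40.0%, against 8.90%), TATAAA in 4 (20.0%, against 9.56%) and CAGCTG in 5 (25.0%, against 17.6%). None of these motifs contains another. CCAAT was as common in expressed HOX genes (7 of 8) as in the others (10 of 12). It was absent from the HOXD8 and HOXD11 windows. HOXC4 and HOXC5 share 1 window and HOX promoters share ancestry, so the matches are not independent. They describe letters and not binding.

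Libraries held 13466631 to 16799327 expected counts in coding genes. The 10 muscle and rhabdomyosarcoma markers were at 1 CPM or more in all 20 libraries (summed 4493 to 4899 CPM in the controls and 2234 to 5134 treated). The 11 markers of blood, epithelium, endothelium, neural crest and liver summed to 0.463 to 1.87 CPM in the controls and 0.595 to 2.43 treated, and EPCAM and KRT5 were at 0 throughout. Each condition had 1 library. In the tests below the 2 doses of a compound, or its 2 doses and 2 times, stand in for replicates. Nothing says that libraries came from separate cultures, so p-values measure the spread between these libraries only. All values come from bulk RNA, in which a change in RNA per cell and a change in the number of cells of a kind cannot be told apart.

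The largest HOX change came at 6 h with dCBP and IHK-44. Summed over the HOXA genes, the controls held 82.6 to 85.9 CPM, the 6 h dCBP libraries 142.8 and 152.6 CPM (1 uM and 100 nM), and the 6 h IHK-44 libraries 148.8 and 139.5 CPM. HOXB went from 41.3 to 43.8 CPM in the controls to 79.9 and 87.4 CPM with dCBP and 88.2 and 71.6 CPM with IHK-44. HOXC went from 16.4 to 22.1 CPM in the controls to 45.1 and 46.8 CPM with dCBP and 43.97 and 40.9 CPM with IHK-44. HOXD was at 22.1 to 27.6 CPM in the controls, 28.6 and 28.7 CPM with dCBP and 27.8 and 25.2 CPM with IHK-44, so that 3 of these 4 libraries lay just above the controls. With A485 the 1 uM library at 6 h was raised in HOXA, HOXB and HOXC (135.0, 64.0 and 36.7 CPM) and the 100 nM library was near the controls (91.6, 46.9 and 20.9 CPM). These sums weigh the highest genes most, and HOXA7 alone had a mean of 33.4 CPM in the controls.

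**Figure D2:**
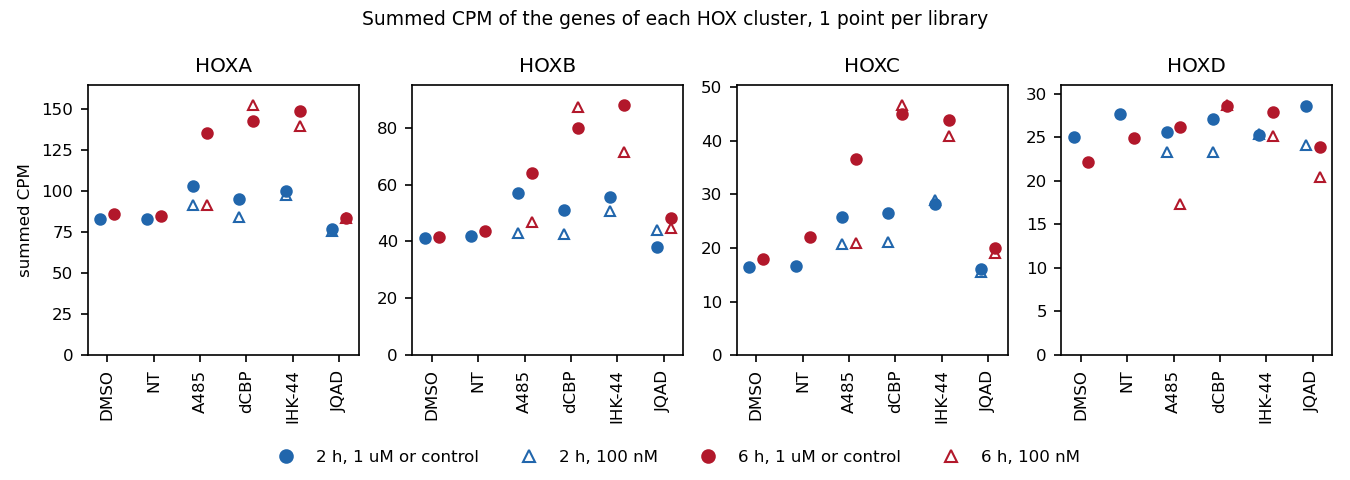
Summed CPM of the genes of each HOX cluster, 1 point per library, with 2 h in blue and 6 h in red, filled circles for 1 uM or control libraries and open triangles for 100 nM. At 6 h the dCBP and IHK-44 libraries stand above the 4 controls in HOXA, HOXB and HOXC, and close to them in HOXD.

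Tested at 6 h against DMSO and NT together (edgeR quasi-likelihood test, Benjamini-Hochberg adjustment over 13058 genes, threshold 0.05), dCBP raised 10 of the 18 expressed HOX genes and lowered 0. Among all 11674 expressed genes the same rule called 16% higher. IHK-44 likewise raised 10 of 18 and lowered 0, where 14.2% of expressed genes were called higher. The calls had 9 genes in common: HOXA5, HOXA7, HOXA10, HOXA13, HOXB3, HOXB4, HOXB7, HOXB13 and HOXC10. HOXC9 was called for dCBP alone and HOXC4 for IHK-44 alone, and over both times the difference between these compounds was not called for either. These comparisons share their controls, so the common genes are not independent evidence. The median log2 change of the 18 was 0.59 with dCBP (0.01 over all expressed genes) and 0.69 with IHK-44 (0.03 over all). A485 raised 1 of 18, HOXB3, against 0.702% of expressed genes, with a median of 0.24. JQAD raised and lowered 0, as it did over all genes (0%), with 0 also at an unadjusted p under 0.05 and a median of -0.02.

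These calls rest on few controls. Without the 6 h DMSO library, 8 of the 10 calls with dCBP and 8 of the 10 with IHK-44 were lost, and only HOXB3 and HOXB4 kept theirs, while the calls over all genes fell from 4583 (35.1%) to 2239 and from 4153 (31.8%) to 2023. Without the 6 h NT library 7 calls with dCBP were lost (HOXB3, HOXB4 and HOXC10 kept theirs) and 8 with IHK-44 (HOXB4 and HOXC10 kept theirs). Of the compound libraries, leaving out dCBP at 100 nM ended the calls of HOXA5, HOXA7, HOXA10, HOXB13 and HOXC9, and at 1 uM those of HOXA13, HOXB7 and HOXC9. Leaving out IHK-44 at 1 uM ended 7 of its 10 calls and at 100 nM 5, and HOXA10, HOXB3 and HOXB4 kept theirs in both. On the authors' TPM, whose total includes genes outside the coding rows, limma called 3 of the 18 higher and 0 lower with dCBP, and 0 higher and 2 lower (HOXB9 and HOXD8) with IHK-44, and the median expressed gene itself moved by -0.25 and -0.24 log2(TPM + 1). Relative to that median, 17 and 16 of the 18 HOX genes still lay above it.

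**Figure D3:**
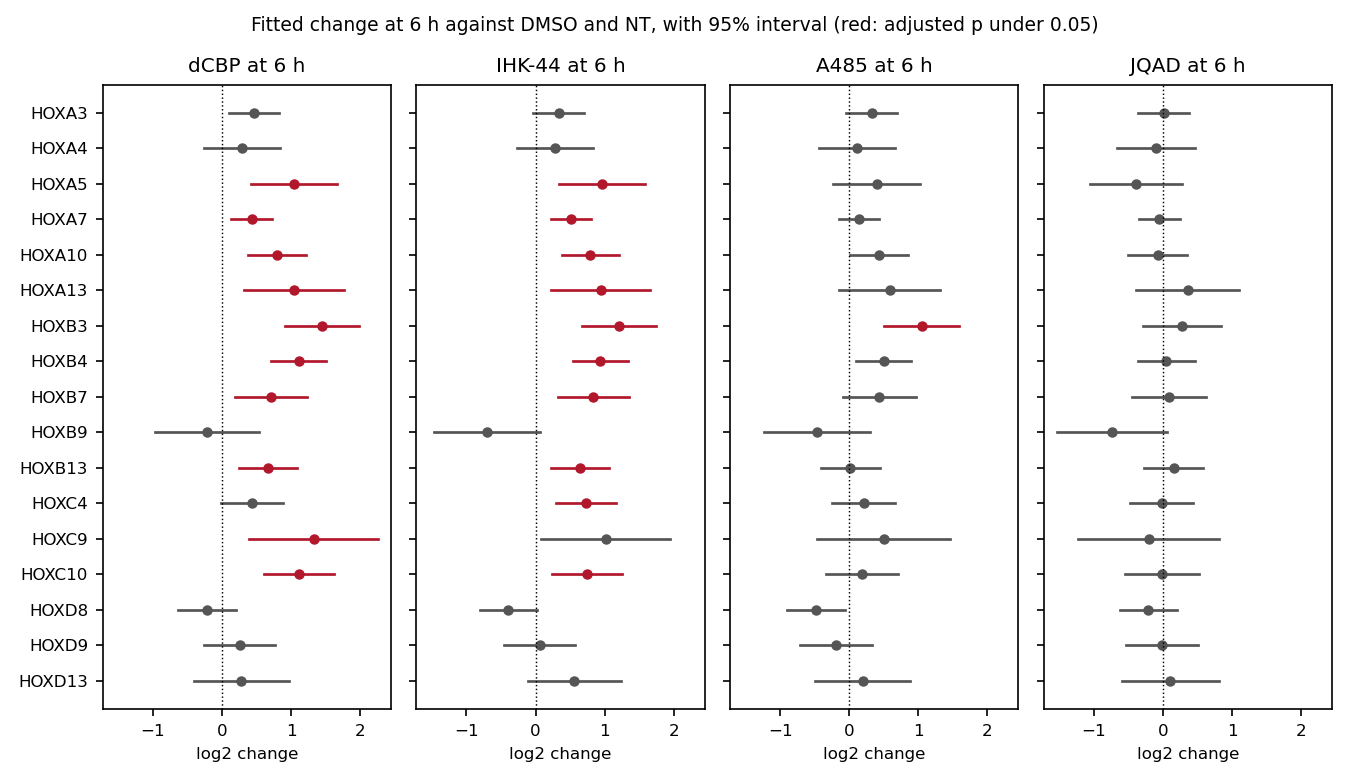
Fitted log2 change at 6 h of 17 expressed HOX genes for each compound against DMSO and NT, with 95% intervals from the edgeR fit, in red where the adjusted p is under 0.05. HOXB3 is the only gene in red for A485, JQAD has none, and HOXD8 and HOXB9 lie left of 0 in all 4 panels.

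Among the HOXA genes, HOXA10 was called at both times with dCBP and with IHK-44. It was at 16.6 and 16.9 CPM with DMSO (2 h and 6 h) and at 14.3 and 16.3 CPM with NT. With dCBP it was at 22.5 and 20.0 CPM at 2 h (1 uM and 100 nM, an order kept throughout) and 30.2 and 35.3 CPM at 6 h, with IHK-44 at 25.0 and 25.6 then 32.7 and 32.1 CPM, with A485 at 22.8 and 20.8 then 30.1 and 18.7 CPM, and with JQAD at 14.5 and 15.0 then 16.7 and 15.2 CPM. Every dCBP, IHK-44 and A485 library stood above every control, and the JQAD libraries lay within the range of the controls. The fitted log2 change at 6 h was 0.79 (SE 0.19, edgeR adjusted p = 0.00892) with dCBP and 0.79 (SE 0.19, adjusted p = 0.00948) with IHK-44. Already at 2 h it was called for all but JQAD: 0.45 with A485, 0.40 with dCBP and 0.66 with IHK-44 (adjusted p = 0.0439, 0.031 and 0.00224). On TPM the dCBP value at 2 h was -0.0068. Of 10 alternatives, the 6 h call was lost in 5 with dCBP and in 4 with IHK-44. The 2 h call was lost in 6 with A485 and in 1 with IHK-44. With dCBP at 2 h, 4 alternatives lost the call and 1 reversed.

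HOXA7, the highest HOX gene and a middle gene of the cluster, was at 32.7 and 32.2 CPM with DMSO and 34.4 and 34.2 CPM with NT. Its 2 h values were 35.0 and 27.0 CPM with dCBP, 39.3 and 37.0 with IHK-44, 39.2 and 34.0 with A485 and 31.8 and 29.9 with JQAD. Its 6 h values were 50.7 and 51.1 CPM with dCBP, 54.1 and 52.6 with IHK-44, 45.5 and 34.3 with A485 and 32.6 and 32.3 with JQAD. The 6 h libraries of dCBP and IHK-44 thus stood clear of the controls, while the 2 h libraries of dCBP fell on both sides of them. At 6 h the log2 change was 0.43 (adjusted p = 0.0287) and 0.51 (adjusted p = 0.0141).

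HOXA5 acts in lung development. Its controls were 5.58 and 6.15 CPM (DMSO) and 6.50 and 5.28 CPM (NT), and its 2 h libraries 6.14 and 6.70 CPM with dCBP, 6.53 and 6.19 with IHK-44, 6.53 and 6.54 with A485 and 4.37 and 4.96 with JQAD. At 6 h they were 12.98 and 13.7 CPM with dCBP, 13.7 and 11.4 with IHK-44, 11.1 and 5.32 with A485 and 4.84 and 3.92 with JQAD. The 4 libraries of dCBP and IHK-44 at 6 h were all above the controls, A485 was so at 1 uM only, and all 4 JQAD libraries were below, a pattern shared by 1.52% of expressed genes and not called (-0.39 at 6 h, 95% interval -1.06 to 0.27). Fitted at 6 h, the log2 change was 1.04 with dCBP (adjusted p = 0.0161) and 0.96 with IHK-44 (adjusted p = 0.0239).

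HOXA13, the last gene of the cluster and needed for digits and the genital tract, was at 3.84 and 4.57 CPM with DMSO and 4.43 and 4.05 CPM with NT. It was at 7.10 and 7.07 CPM with dCBP at 2 h and 12.0 and 8.21 at 6 h, at 7.65 and 6.26 then 10.3 and 8.39 with IHK-44, at 8.60 and 5.34 then 9.84 and 4.30 with A485, and at 3.39 and 4.05 then 5.36 and 5.84 with JQAD. Both times of dCBP and IHK-44 stood above the controls, and the A485 libraries of 100 nM were lower than those of 1 uM. The log2 change was 0.73 (SE 0.23, adjusted p = 0.0474) with dCBP at 2 h and 1.04 (SE 0.33, adjusted p = 0.0305) at 6 h, and 0.94 (SE 0.33, adjusted p = 0.0481) with IHK-44 at 6 h.

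HOXA3, an anterior gene used in the thymus and parathyroid, went 2 ways. It was at 11.7 and 13.7 CPM with DMSO and 12.1 and 11.1 CPM with NT. Its 2 h values were 10.1 and 8.76 CPM with dCBP, 7.28 and 8.43 with IHK-44, 11.1 and 11.2 with A485 and 10.8 and 10.98 with JQAD, and its 6 h values 18.1 and 20.8 with dCBP, 18.1 and 17.1 with IHK-44, 18.9 and 14.9 with A485 and 12.3 and 13.02 with JQAD. The 2 h libraries of dCBP, IHK-44 and JQAD lay below every control, and the 6 h libraries of dCBP, IHK-44 and A485 above every control. With IHK-44 the fall at 2 h was called (-0.65, SE 0.15, adjusted p = 0.0103), the only HOX gene called lower in the edgeR fits reported here, against 7.81% of expressed genes. Other settings also called HOX genes lower: edgeR with DMSO and NT pooled called 1 lower for A485 and 1 for IHK-44. At 6 h it was not called (0.46 with dCBP, adjusted p = 0.0505, and 0.33 with IHK-44, adjusted p = 0.145). Its model spans HOXA4, HOXA5 and HOXA6, so reads could be divided among them. The call at 2 h was lost without the NT library or the 1 uM IHK-44 library of that time.

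HOXA4, a neighbour of HOXA3 and HOXA5 within overlapping models, was not called at 6 h. Its log2 change was 0.29 with dCBP (adjusted p = 0.391) and 0.28 with IHK-44 (adjusted p = 0.408).

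In HOXB, HOXB3 and HOXB4, neighbours with overlapping models, had the lowest adjusted p-values of the expressed HOX genes at 6 h with dCBP and with IHK-44. HOXB3 was at 3.27 and 3.84 CPM with DMSO and 5.33 and 3.28 CPM with NT. It was at 6.88 and 6.55 CPM with dCBP at 2 h and 11.4 and 10.8 at 6 h, at 7.50 and 5.94 then 10.3 and 8.25 with IHK-44, at 8.62 and 5.41 then 9.59 and 6.48 with A485, and at 2.75 and 5.24 then 3.68 and 5.13 with JQAD. All libraries of dCBP, IHK-44 and A485 stood above all controls. The log2 change at 6 h was 1.45 with dCBP (SE 0.24, adjusted p = 0.00148), 1.21 with IHK-44 (SE 0.24, adjusted p = 0.00404) and 1.05 with A485 (SE 0.25, adjusted p = 0.0475). The A485 call was lost in 5 of 10 alternatives, among them each of the fits without the 6 h DMSO, the 6 h NT or the 1 uM A485 library.

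HOXB4, known for its action in blood stem cells, was at 7.14 and 5.89 CPM with DMSO and 5.56 and 5.99 CPM with NT. Its 2 h values were 10.1 and 6.04 CPM with dCBP, 7.35 and 8.37 with IHK-44, 9.31 and 6.90 with A485 and 5.73 and 6.71 with JQAD, and its 6 h values 14.9 and 14.2 with dCBP, 13.4 and 12.3 with IHK-44, 10.5 and 7.78 with A485 and 6.01 and 6.44 with JQAD. At 2 h libraries of dCBP overlapped the controls and at 6 h they did not. At 6 h the log2 change was 1.11 (adjusted p = 0.00127) with dCBP and 0.94 (adjusted p = 0.00315) with IHK-44. With dCBP, HOXB3 and HOXB4 passed in all 10 alternatives tried.

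HOXB7, the partner of HOXA7 in position, was at 5.16 and 5.96 CPM with DMSO and 7.06 and 6.95 CPM with NT. It was at 10.1 and 6.99 CPM with dCBP at 2 h and 14.4 and 9.63 at 6 h, at 10.5 and 8.37 then 14.4 and 11.6 with IHK-44, at 8.28 and 7.02 then 10.8 and 8.26 with A485, and at 5.47 and 6.01 then 7.62 and 6.21 with JQAD. The 6 h libraries of dCBP, IHK-44 and A485 lay above the controls. Fitted at 6 h, the log2 change was 0.71 (adjusted p = 0.0396) with dCBP and 0.84 (adjusted p = 0.0201) with IHK-44.

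HOXB13 lies apart from the rest of HOXB and was the second highest HOX gene by CPM. It was at 24.0 and 23.8 CPM with DMSO and 22.0 and 24.9 CPM with NT. Its 2 h values were 23.2 and 20.6 CPM with dCBP, 27.8 and 25.6 with IHK-44, 28.3 and 21.8 with A485 and 21.3 and 23.6 with JQAD, and its 6 h values 37.2 and 50.5 with dCBP, 48.5 and 37.7 with IHK-44, 31.0 and 22.7 with A485 and 29.3 and 25.5 with JQAD. The higher dCBP value came from the lower dose and the higher IHK-44 value from the higher dose. The log2 change at 6 h was 0.66 (adjusted p = 0.0208) and 0.65 (adjusted p = 0.0246). HOXB9, the remaining expressed gene of the cluster, was between 1.44 and 2.12 CPM in the controls and was not called, with log2 values at 6 h of -0.74 (JQAD), -0.70 (IHK-44), -0.47 (A485) and -0.21 (dCBP).

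In HOXC, HOXC10, a gene of the lumbar spinal cord and hindlimb, was at 4.56 and 4.70 CPM with DMSO and 4.56 and 7.40 CPM with NT. It was at 6.65 and 6.92 CPM with dCBP at 2 h and 14.4 and 15.4 at 6 h, at 6.68 and 6.65 then 11.4 and 11.5 with IHK-44, at 7.11 and 7.57 then 8.72 and 6.21 with A485, and at 5.67 and 5.45 then 6.14 and 5.99 with JQAD. Dose pairs stood wholly above the high NT value only for dCBP and IHK-44 at 6 h. At 6 h the log2 change was 1.11 (adjusted p = 0.00447) with dCBP and 0.75 (adjusted p = 0.0298) with IHK-44, and at 2 h 0.64 (adjusted p = 0.0473) with A485.

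HOXC9, which marks the thoracic spinal cord, was at 1.62 and 2.91 CPM with DMSO and 2.56 and 1.80 CPM with NT. Its 2 h values were 3.25 and 2.80 CPM with dCBP, 4.75 and 3.69 with IHK-44, 2.85 and 2.04 with A485 and 2.28 and 1.82 with JQAD, and its 6 h values 7.30 and 6.16 with dCBP, 5.65 and 5.06 with IHK-44, 5.48 and 1.77 with A485 and 2.33 and 1.78 with JQAD. IHK-44 stood above the controls at both times and dCBP at 6 h. The log2 change was 1.33 (adjusted p = 0.0317) with dCBP at 6 h, and with IHK-44 0.96 (adjusted p = 0.0489) at 2 h and 1.01 (adjusted p = 0.0904) at 6 h.

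HOXC4, the most anterior HOXC gene, was at 6.66 and 7.54 CPM with DMSO and 7.52 and 8.82 CPM with NT. It was at 7.91 and 7.10 CPM with dCBP at 2 h and 13.6 and 11.6 at 6 h, at 11.3 and 11.9 then 16.3 and 14.3 with IHK-44, at 8.86 and 6.24 then 12.4 and 8.19 with A485, and at 5.93 and 5.17 then 8.01 and 8.36 with JQAD. IHK-44 libraries were the highest at both times. The log2 change with IHK-44 was 0.66 (adjusted p = 0.0267) at 2 h and 0.73 (adjusted p = 0.0182) at 6 h, and with dCBP at 6 h 0.44 (adjusted p = 0.115).

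In HOXD, none of the 3 expressed genes was called in the edgeR fits reported here, and at 6 h HOXD9 and HOXD13 stood above all controls in both dCBP libraries. HOXD8 was at 11.9 and 11.8 CPM with DMSO and 14.6 and 11.5 CPM with NT. Its 2 h values were 11.2 and 10.2 CPM with dCBP, 10.5 and 9.29 with IHK-44, 10.5 and 10.6 with A485 and 13.5 and 11.2 with JQAD, and its 6 h values 11.4 and 11.3 with dCBP, 10.0 and 9.82 with IHK-44, 10.9 and 7.23 with A485 and 10.5 and 9.84 with JQAD. All 12 libraries of dCBP, IHK-44 and A485 thus lay below the lowest control, some by little. It was the only expressed HOX gene below the controls in all 4 libraries of each of these compounds, a pattern found in 11.7% (dCBP), 12% (IHK-44) and 7.82% (A485) of expressed genes. Fitted at 6 h, the log2 change was -0.21 (dCBP, adjusted p = 0.397), -0.40 (IHK-44, adjusted p = 0.128) and -0.48 (A485, adjusted p = 0.144). DESeq2 did call it lower for IHK-44 against DMSO, as did limma on TPM for dCBP and IHK-44. On log2(TPM + 1) against DMSO, HOXD8 moved by -0.49 (dCBP) and -0.66 (IHK-44). The median expressed gene itself moved by -0.30 and -0.31 there, and relative to it HOXD8 was at -0.19 and -0.36. For HOXD9 the change at 6 h was 0.25 (dCBP, adjusted p = 0.42) and 0.06 (IHK-44, adjusted p = 0.86), and for HOXD13 0.28 (dCBP, adjusted p = 0.513) and 0.56 (IHK-44, adjusted p = 0.179). Whether HOXD differed from the other clusters was not tested.

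**Figure D4:**
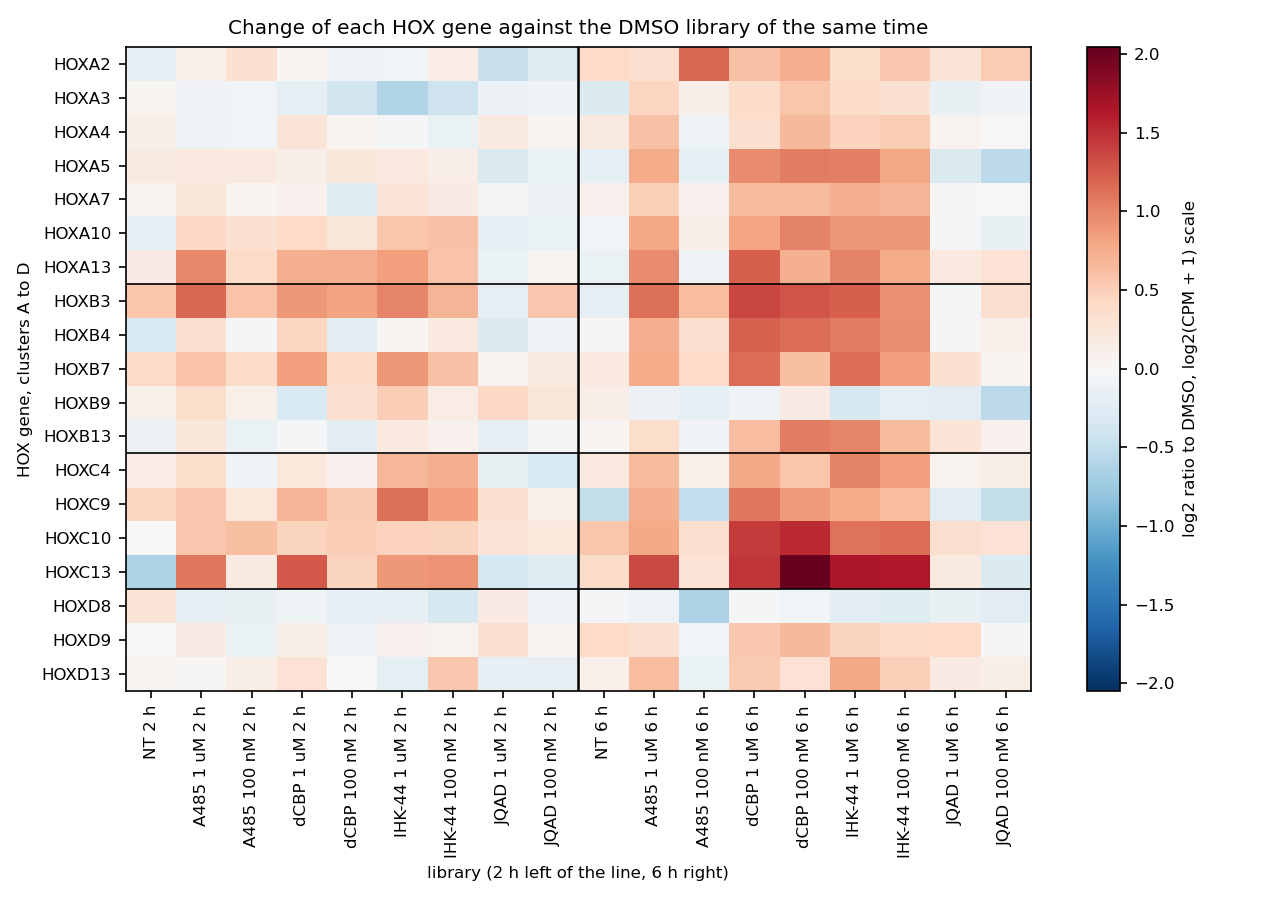
Log2 ratio of each library to DMSO at the matching time, on the log2(CPM + 1) scale, for 17 expressed HOX genes with HOXA2 and HOXC13, ordered by cluster (separated by lines) and with 2 h left and 6 h right of the vertical line. The 6 h columns of dCBP and IHK-44 and of A485 at 1 uM are mostly red in HOXA, HOXB and HOXC, whereas the HOXD8 row is pale or blue in those columns.

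Separation of single libraries was set beside that of other genes. At 6 h both dCBP libraries stood above all 4 controls in 16 of the 18 expressed HOX genes (43.4% of expressed genes did), both IHK-44 libraries in 15 (52.4%), both A485 libraries in 6 (32.4%) and both JQAD libraries in 3 (5.17%). Taking all 4 libraries of a compound, IHK-44 was above the controls in 10 genes (24.2%), dCBP in 4 (19.8%), A485 in 3 (10.6%) and JQAD in 0 (0.36%). Ratios to the DMSO library of 6 h reached 2-fold, on the log2(CPM + 1) scale, in 6 of 18 genes with dCBP at 1 uM and in 6 at 100 nM (4.33% and 5.54% of expressed genes), and with IHK-44 in 7 at 1 uM and 1 at 100 nM (4.71% and 2.39%). In 1 uM A485 it was 1 gene (2.46%), in 100 nM A485 0 (0.497%) and in the JQAD libraries 0 at 1 uM (0%) and 0 at 100 nM (0.291%). The median expressed gene itself lay above DMSO, by up to 0.21 log2 in 1 uM IHK-44 at 6 h, while the median HOX gene there was at 0.85.

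The 21 genes under 1 CPM in at least 1 control were few in reads, and 7 of them entered the tests at 6 h because some libraries passed the filter. Counts over these 7 are not read as support. HOXC13, a gene of hair and nail, was at 2.04 and 1.92 CPM with DMSO and 0.937 and 2.77 CPM with NT. It was at 6.28 and 3.17 CPM with dCBP at 2 h and 7.08 and 11.05 at 6 h, at 4.60 and 4.74 then 8.24 and 8.10 with IHK-44, at 5.43 and 2.46 then 6.47 and 2.52 with A485, and at 1.37 and 1.54 then 2.33 and 1.41 with JQAD. Every dCBP and IHK-44 library was above the controls, and so was A485 at 1 uM. The log2 change at 6 h was 1.76 (SE 0.41, adjusted p = 0.00799) with dCBP and 1.62 (SE 0.41, adjusted p = 0.0125) with IHK-44.

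HOXD11, a forearm gene, had 1 and 1 counts in the DMSO libraries and 3 and 2 with NT. It had 10 and 5 counts with dCBP at 2 h and 11 and 16 at 6 h, 7 and 8 then 18 and 12 with IHK-44, 7 and 9 then 7 and 4 with A485, and 4 and 1 then 2 and 6 with JQAD. All libraries of dCBP, IHK-44 and A485 exceeded all controls, at levels that give no firm size, and it was called at 6 h for dCBP (adjusted p = 0.011) and IHK-44 (adjusted p = 0.0136). HOXD11 entered that test through the libraries where it was high, so these calls are not read as support. Each was lost in 4 of 10 alternatives, among them the fits without either 6 h control. HOXC6 had 7, 1, 2.66 and 3 expected counts in DMSO at 2 h and 6 h and NT at 2 h and 6 h. It had 14 and 1.52 with dCBP at 2 h and 22 and 14 at 6 h, 1 and 11 then 15 and 14 with IHK-44, 7 and 12 then 23 and 8.36 with A485, and 2 and 5 then 4 and 8.45 with JQAD. At 2 h dCBP and IHK-44 each had 1 library above the controls and 1 within them, and the calls came at 6 h (adjusted p = 0.0102 for dCBP and 0.0325 for IHK-44). The HOXC6 call was lost in 2 of 10 alternatives for dCBP and in 7 of 10 for IHK-44.

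HOXA6 had 1 and 5 counts with DMSO and 1 and 3 with NT. It had 3 and 3 counts with dCBP at 2 h and 9 and 25 at 6 h, 2 and 8 then 15 and 10 with IHK-44, 9 and 5 then 5 and 1 with A485, and 3 and 2 then 4 and 3 with JQAD. Both dCBP and both IHK-44 libraries of 6 h exceeded the controls, and the dCBP call (adjusted p = 0.0438) was lost without the 100 nM library or without either 6 h control. Together the 19 low HOX genes summed to 2.05 to 3.28 CPM in the controls, 6.71 and 7.36 CPM in dCBP at 6 h, 6.92 and 4.76 in IHK-44 at 6 h, 6.04 and 3.96 in A485 at 6 h and 2.78 and 3.11 in JQAD at 6 h. All 6602 low genes of the libraries moved too, from a sum of 551 to 730 CPM in the controls to 1029 and 1063 CPM with dCBP at 6 h. Genes with a mean of at most 0.2 CPM summed to 1.47 to 1.55 times their DMSO level with dCBP at 6 h, 1.31 to 1.56 times with IHK-44, 1.44 to 1.60 times with A485 and 1.05 to 1.42 times with JQAD. Their part in the rise of the low HOX genes was not tested.

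At 2 h few HOX genes were called. Of the 18, dCBP raised 2 (HOXA10 and HOXA13, against 7.89% of expressed genes) and A485 2 (HOXA10 and HOXC10, against 1.91%). IHK-44 raised 3 (HOXA10, HOXC4 and HOXC9, against 6.24%) and lowered HOXA3. For JQAD 0 were called, with 0 at an unadjusted p under 0.05. At that level were 6 (A485), 6 (dCBP) and 9 (IHK-44) of the 18, next to 2621, 4123 and 3441 of all 12971 genes tested. A HOX gene not called at 2 h is thus not shown to be unchanged. These calls were fragile: without the 2 h NT library, dCBP and A485 called 0 HOX genes and IHK-44 1. The 2 calls of dCBP were also lost without its 1 uM library, and those of A485 without its 1 uM library or the 2 h DMSO library. On TPM the direction turned at 2 h: with dCBP 5 of the 18 were positive and 13 negative, with 0 called higher and 3 lower (HOXA3, HOXA7 and HOXD8), and with IHK-44 8 were positive and 10 negative, with 0 called higher and 2 lower (HOXA3 and HOXD8). The median expressed gene moved by -0.37 and -0.40 on that scale. Relative to that median, 13 (dCBP) and 15 (IHK-44) of the 18 HOX genes lay above it. HOXC13 was also higher at 2 h with dCBP (1.60, adjusted p = 0.023) and IHK-44 (1.59, adjusted p = 0.0283).

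The change between times was tested as an interaction, the compound's effect at 6 h minus that at 2 h. With dCBP, 3 of the 18 passed in the higher direction (2.83% of expressed genes): HOXA3 by 0.88 (SE 0.21, adjusted p = 0.0175), HOXA7 by 0.62 (SE 0.18, adjusted p = 0.0373) and HOXB13 by 0.81 (SE 0.25, adjusted p = 0.0484). With IHK-44, HOXA3 passed (0.98, SE 0.21, adjusted p = 0.00806, against 2.24%). For A485 and JQAD 0 passed, with 1 each at an unadjusted p under 0.05. For the remaining genes, then, a larger value at 6 h than at 2 h is not shown to be a difference between times.

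Over both times and doses, each compound's 4 libraries were set against the 2 DMSO libraries. dCBP raised 5 of 18 (HOXA10, HOXA13, HOXB3, HOXB7 and HOXC10, against 11.6% of expressed genes) and IHK-44 the same 5 and HOXC4 (against 7.79%). The log2 change of HOXB3 was 1.199 (SE 0.29, adjusted p = 0.0111) with dCBP and 1.05 (SE 0.29, adjusted p = 0.0244) with IHK-44. A485 raised 0 (0.128%), with 6 at an unadjusted p under 0.05 and HOXB3 at 1.01 (adjusted p = 0.0998), and DESeq2 called 1. JQAD and NT called 0 (0% for both), with 0 at an unadjusted p under 0.05. Without the 6 h DMSO library, dCBP and IHK-44 also called 0, while the calls over all genes fell from 3137 to 118 and from 2247 to 125.

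The compounds were then compared with each other at matched doses and times, in 6 pairs. dCBP and IHK-44 each exceeded JQAD in 10 of the 18 genes (19% and 17.1% of expressed genes), and after further adjustment over the 6 pairs in 6 each. HOXA10 was higher than with JQAD by 0.68 log2 (SE 0.12, p adjusted over genes and pairs = 0.00338) with dCBP and by 0.78 (SE 0.12, adjusted p = 0.00238) with IHK-44. HOXC4 was higher by 0.86 (SE 0.13, adjusted p = 0.00255) with IHK-44. A485 exceeded JQAD in 1 gene, HOXA10 (0.51, SE 0.12; against 3.43%), which did not pass over the 6 pairs (adjusted p = 0.0545). dCBP and IHK-44 differed in 0 genes (0%, 1 at an unadjusted p under 0.05), and A485 differed from dCBP and from IHK-44 in 0 (0.805% and 0.994% in either direction, with 2 and 4 at an unadjusted p under 0.05). The 95% intervals leave room for differences: for HOXB3 from -0.30 to 0.60 log2 between dCBP and IHK-44, and from -0.64 to 0.27 between A485 and dCBP. For HOXC4 the value between dCBP and IHK-44 was -0.44 (interval -0.71 to -0.16, adjusted p = 0.645). On TPM, where the median gene moved in opposite directions with A485 and with dCBP or IHK-44, the pairs with A485 gave 14, 13 and 12 HOX calls of 25 (dCBP, IHK-44 and JQAD). The same fits called 10693, 11189 and 3067 of all 13260 genes, so these HOX counts are not read as a result about HOX genes.

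For JQAD the 6 h intervals show the room left for a change by the spread between these libraries only. HOXA10 was at -0.08 (interval -0.50 to 0.35), HOXA7 at -0.05 (-0.35 to 0.25) and HOXB4 at 0.05 (-0.36 to 0.46), each below the values fitted for dCBP and IHK-44. For HOXB3 it was 0.28 (-0.29 to 0.85), which also ends below the other 3 compounds' values. HOXA13 was at 0.36 (-0.39 to 1.11), an interval that holds the values fitted for dCBP and IHK-44.

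Dose called 0 HOX genes over the 4 compounds (0% of expressed genes, 3 of 18 at an unadjusted p under 0.05) and 0 for each compound alone. With A485 the dose change fitted over both times was nonetheless positive, higher at 1 uM, in all 18 expressed HOX genes, against 47.9% of all expressed genes. Its median was 0.33 log2, where 1.03% of expressed genes were called in either direction and the median of expressed genes was -0.01. At 2 h alone some genes, such as HOXC10, were lower at 1 uM than at 100 nM. HOXC9 (0.99, 95% interval 0.34 to 1.65, adjusted p = 0.19) and HOXA13 (0.86, interval 0.40 to 1.33, adjusted p = 0.101) had the widest gaps. Doses of the other compounds differed less, with medians of 0.04 (dCBP), 0.05 (IHK-44) and 0.06 (JQAD), and the difference between compounds in dose effect was not tested.

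Genes around the HOX clusters and their partners give the setting. TALE cofactors (MEIS, PBX and PKNOX) bind DNA together with HOX proteins, and at 6 h 1 of 9 rose and 5 fell with dCBP (median -0.49) and 0 rose and 6 fell with IHK-44 (median -0.51). MEIS1 fell by 1.43 log2 with dCBP (adjusted p = 0.000827) and by 1.40 with IHK-44 (adjusted p = 0.000888). Of 31 other developmental transcription factor genes, mostly homeobox genes with 2 T-box genes among them, 19 were tested. With dCBP 4 rose and 11 fell (median -0.94) and with IHK-44 4 rose and 12 fell (median -1.02). The 4 that rose were DLX2, MNX1, MSX1 and PDX1 with both compounds, and all but MSX1 were under 1 CPM in at least 1 control, so they could enter the test through the libraries where they were high. Of all expressed genes, 20.6% (dCBP) and 19.2% (IHK-44) were called lower at 6 h, against 0 of the 18 expressed HOX genes.

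Regulators of the clusters, 29 of 34 tested, were mixed: 6 rose and 4 fell with dCBP (median -0.03) and 5 rose and 6 fell with IHK-44 (median -0.02). Of all expressed genes, 16% were called higher and 20.6% lower with dCBP, and 14.2% and 19.2% with IHK-44. These counts are thus not read as particular to the regulators. EZH2, the Polycomb methyltransferase, was at 0.08 (adjusted p = 0.597) and 0.13 (adjusted p = 0.352). JARID2, another Polycomb component, and RARA, the retinoic acid receptor that acts on HOX genes, fell with both compounds. Of 16 genes flanking the clusters, 12 were tested, with 3 higher and 2 lower for each compound (medians 0.15 and 0.15), also not read as particular to them. With A485 at 6 h PKNOX2 fell among the cofactors, JARID2 among the regulators and EN2 and SIX2 among the other factors, and JQAD moved none of these lists' genes past the threshold.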

How the data were processed

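RNA-seq of total RNA from 20 libraries was used. Per the submitters' processing notes, the tools listed include STAR 2.5.3a and RSEM 1.3.3 and the builds hg38 and mm10. Which step used which, the annotation and the strand setting are not given in the sources used here. Each deposited file lists coding genes only. The authors' expected counts are estimated reads per gene (88.2% whole numbers). The deposited CPM values are those counts scaled to 1000000 over the coding rows. The TPM and FPKM values deposited by the authors were scaled over more genes than the coding rows, which held 27.9% to 53.9% of the TPM. FPKM served only to recover the reads outside the coding rows (4.64% to 11.3%, highest with dCBP and IHK-44).

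Rounded expected counts went into edgeR 4.0.16 in R 4.3.3 (TMM scaling, filterByExpr, quasi-likelihood test, Benjamini-Hochberg over all genes tested). The fits against DMSO and between compounds had 20 libraries, a time term and 13 residual degrees of freedom. Fits at 2 h and at 6 h had 10 libraries and 5 degrees of freedom, with DMSO and NT pooled. Time dependence was an interaction, and dose was fitted within compound and time. The fits were run on simulated counts drawn independently for each library, with the same change at both doses outside the dose fits. That cannot show how they behave where doses stand in for replicates. Ratios of single libraries used log2(CPM + 1), which understates low genes. DESeq2 1.42.0, limma 3.58.1, other filters, scalings, controls and leaving out each library were alternatives. The members, the gene lists and the comparisons were chosen with earlier results of these data known. Values in every library were given for HOX genes called for a compound against DMSO or at a time, and for the 3 highest. HOXD8 and the genes named from other lists were chosen after their values were seen. Some genes are not reported here by name, and counts and medians include them.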

Additional observations from a re-analysis of the deposited data

Results flagged for a closer look

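The change of 3 HOX genes against the controls differed between 6 h and 2 h by the interaction test (edgeR), which is why they are listed. With dCBP the difference was 0.876 log2 for HOXA3, 0.620 for HOXA7 and 0.815 for HOXB13, and with IHK-44 it was 0.981 for HOXA3. HOXA3 was below every control at 2 h and above every control at 6 h with both compounds, while HOXA7 and HOXB13 lay within or below the controls' range in at least 1 library at 2 h with dCBP. For dCBP the call was lost in 5 of 13 alternatives for HOXA3, in 7 for HOXA7 and in 8 for HOXB13. Each of the 3 dCBP calls was lost without the 2 h DMSO, the 2 h NT, the 6 h NT or the 2 h dCBP library of 100 nM. For IHK-44 the HOXA3 call was lost in 1 of 13, limma on TPM. The model of HOXA3 overlaps those of 3 other HOX genes, and the part of read assignment in its values was not tested.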

How the results depend on the processing

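Over all alternatives, 252 of 328 counts of HOX genes called stayed within 1.5 times the reported value. Counts of 0 that stayed 0 are among the 252, also where no gene at all was called, as for JQAD against DMSO. The 252 are thus not read as a measure of stability. Of 627 values of single called genes, 396 kept direction and call, 230 lost the call and 1 reversed. The reversed value was HOXA10 with dCBP at 2 h, at -0.0068 with limma on log2(TPM + 1). Treated and control libraries could not be paired by replicate, because each condition has 1 library and the labels give no replicate numbers. The dose fits did compare doses within each compound and time. For every result below the cause was not tested, and counts are over all HOX genes tested. They thus include low genes, whose calls are not read as support. Of the 14 calls with dCBP and 13 with IHK-44 at 6 h, 10 each were of expressed genes.

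Limma on log2(TPM + 1), chosen after seeing the data, gave 1 HOX call for A485 against DMSO (0 reported), 4 for dCBP (7) and 3 for IHK-44 (8), 14 for A485 against dCBP (0), 13 for A485 against IHK-44 (0), 12 for A485 against JQAD (2), 4 for dCBP against JQAD (12) and 3 for IHK-44 against JQAD (12). Over all 13260 genes, in the same order, it called 272 (36), 4122 (3137), 3995 (2247), 10693 (96), 11189 (117), 3067 (651), 5944 (4680) and 5978 (4308). It gave 3 HOX calls for IHK-44 at 2 h (5, and 2 of the 3 lower), 5 for A485 at 6 h (1), 6 for dCBP at 6 h (14), 4 for IHK-44 at 6 h (13, and 2 of the 4 lower), 4 for dCBP at 2 h (3, and 3 of the 4 lower), and 0 for the time dependence of dCBP (3) and IHK-44 (1). Over all genes, in the same order, it called 3638 (1681), 2501 (411), 3437 (4583), 3262 (4153), 3563 (2170), 17 (1202) and 99 (1312). With DMSO and NT pooled, 871 (A485), 5344 (dCBP) and 4605 (IHK-44) of 13001 genes were called, against 36, 3137 and 2247 of 13260 with DMSO. The HOX calls, now of 23 tested, rose along with them to 4 (A485, 3 higher and 1 lower), 12 (dCBP, all higher) and 13 (IHK-44, 12 higher and 1 lower). With DMSO alone as control they were 0, 0 and 1 at 2 h and 0, 5 and 3 at 6 h (A485, dCBP, IHK-44). DESeq2 gave 1 for A485 against DMSO and 1 for A485 against IHK-44 (385 and 425 of all 13260 genes). At 2 h DESeq2 gave 0, 1 and 3 for A485, dCBP and IHK-44 (591, 1869 and 1459 of 12971 genes). Limma on log2(CPM + 1) gave 1 for A485 against IHK-44 and 4 for A485 against JQAD (162 and 954 of 13260 genes). For A485 at 6 h, RLE scaling gave 0 and no filter 2 (200 of 13058 and 1284 of 16552 genes). No filter gave 1 for the dose of A485 (243 of 16895 genes). At a 1.5-fold threshold 1 (A485), 2 (dCBP) and 4 (IHK-44) expressed HOX genes were higher than DMSO in every library of the compound, against 0 at 2-fold. The share of all expressed genes was not counted there, so these fold counts are not read as a result about HOX genes.

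Leaving out 1 library at a time gave these ranges. Against DMSO they were 0 to 1 (A485), 0 to 9 (dCBP) and 0 to 8 (IHK-44), the 0 of dCBP and IHK-44 without the 6 h DMSO library. At 2 h they were 0 to 3 (A485), 0 to 2 (dCBP) and 1 to 3 (IHK-44), and at 6 h 0 to 7 (A485), 2 to 12 (dCBP) and 2 to 7 (IHK-44). The highest count for A485 at 6 h came without its 100 nM library, a fit with 1 A485 library in which the calls over all genes rose as well. Between compounds they were 0 to 6 (A485 against JQAD), 0 to 1 (A485 against IHK-44), 9 to 15 (dCBP against JQAD) and 5 to 13 (IHK-44 against JQAD), and for the time dependence of dCBP 0 to 3. JQAD and NT against DMSO, JQAD at each time and the dose comparisons stayed at 0. Genes near 1 CPM rest on about 15 counts a library, which limits HOXB9, HOXC9 and the low genes.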
